A study of Mus musculus with 6 samples.

Results

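The genes described here build and move transport vesicles: coat proteins, clathrin adaptors, Golgi structural proteins, the exocyst tether, effectors and motors that carry vesicles to the cell surface, and the Arf GTPases that recruit coats. The list held 52 genes, and every probe set whose platform annotation names 1 of them alone was taken. That gave 124 probe sets, out of 34945 on the array with 1 gene symbol, and all 52 genes of the 18193 named were represented. The arrays came from 393P cells, a mouse lung cancer line. The groups were cells with stable, constitutive expression of Zeb1 from a transfected vector (3 cultures) and cells stably transfected with the empty pcDNA vector (3 cultures), so all cells had been through transfection and selection. Zeb1 is a zinc-finger transcription factor known for repressing epithelial genes. The number of independent transfections or clones per group is not stated in the labels, so the p-values measure the spread between cultures.

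Secretory cargo leaves the endoplasmic reticulum in vesicles coated with COPII, and COPI vesicles bring material back and move it within the Golgi. Golgins are long coiled-coil proteins that tether vesicles to Golgi membranes, and AP adaptor complexes sort cargo into clathrin-coated and other vesicles at the trans-Golgi network, on endosomes and at the cell surface. The exocyst tethers vesicles to the plasma membrane, and synaptotagmin-like proteins link Rab27 vesicles to it. Epithelial cells are known for a second form of the AP-1 adaptor, containing the Ap1m2 product, which sorts proteins to the basolateral surface.

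Each array had been summarised with MAS5, and values are log2 signals. Signals below the pooled 25th percentile (log2 4.45, a linear signal of 21.8) were raised to that floor. For testing, a probe set needed a signal no lower than the median of the array on 3 or more of the 6 arrays, which 97 of the 124 had. Another 5 lay at the floor on all 6 arrays. Each gene was read from its brightest tested probe set, 50 genes in all. A probe set could pass the filter through 1 group alone, as those of Exph5, Copz2, Sec16b, Mlph and Cog5 did, among others. Its adjusted p is then limited by a filter that chose it for the group where it was high. The words rose and fell are used only where limma's adjusted p over all 20594 tested probe sets was under 0.05. A fold is written as at least N-fold where an array lay at the floor or the lower group's mean lay under the pooled median of 6.32. Zeb1 itself had signals of 9.71, 9.59 and 9.78 on the Zeb1 vector arrays, against 4.45, 4.45 and 4.50 on the control vector arrays, at least 37.4-fold higher. On its other tested probe set it rose by at least 1.17, and its remaining 2 probe sets did not pass the filter. Of 6 epithelial markers 4 fell and none rose, and all 3 mesenchymal markers rose. Cdh1 (E-cadherin) fell 16.1-fold, to 10.17 ± 0.14 in Zeb1 vector cells, against 14.18 ± 0.027 in control vector cells (SD, n = 3 each). Epcam fell by 7.05 and Krt7 by 8.31 on the log2 scale, the second a lower bound, and Krt8 by 0.16. Krt18 and Krt19 were not called (log2 changes of 0.03 and -0.04). Cdh2 (N-cadherin), Vim and Fn1 rose by 4.89, 2.86 and 1.14. The summed linear signal of the epithelial markers was 57573 to 61805 on the Zeb1 vector arrays and 109656 to 116408 on the control vector arrays, and that of the mesenchymal markers 36719 to 42343 and 6945 to 7669. Of 12 further markers of lung epithelial cells, leukocytes, endothelial cells and fibroblasts, 3 in each list, only 3 passed the filter and none was called. These were Sftpc (6.30 in Zeb1 vector cells and 6.31 in control vector cells), Cd68 (7.52 and 7.62) and Kdr (7.49 and 7.73). The summed signals were 99.5 to 161 on the Zeb1 vector arrays and 122 to 167 on the control vector arrays for lung epithelial markers, 213 to 289.8 and 241 to 311 for leukocyte markers, 240 to 332 and 225 to 377 for endothelial markers, and 136 to 152 and 95.0 to 229 for fibroblast markers. Pecam1 lay at the floor on all 6 arrays. Nkx2-1, Scgb1a1 and Ptprc lay at or near it.

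Of the 50 tested genes 11 rose, 8 fell and 31 were not called. Thus 38.0% of the members were called, whereas 49.3% of all 11893 tested genes were. By direction, 22.0% of the members and 25.8% of all genes rose, and 16.0% of the members and 23.5% of all genes fell. Among the members 5 rises and 4 falls reached 2-fold, or 10% and 8% of the 50 members, close to the 8.97% and 6.79% of all tested genes. The members' median absolute log2 change was 0.19, against 0.36 over all tested genes. Of the 31 members not called, 27 had a log2 change of less than 0.3 in either direction. Counted by probe set, 27 of 97 rose and 10 fell, against 46.1% called of all tested probe sets, 24.5% as rises and 21.6% as falls. Among them 11 rises and 4 falls reached 2-fold, against 8.97% and 6.17% of all tested probe sets.

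**Figure D1:**
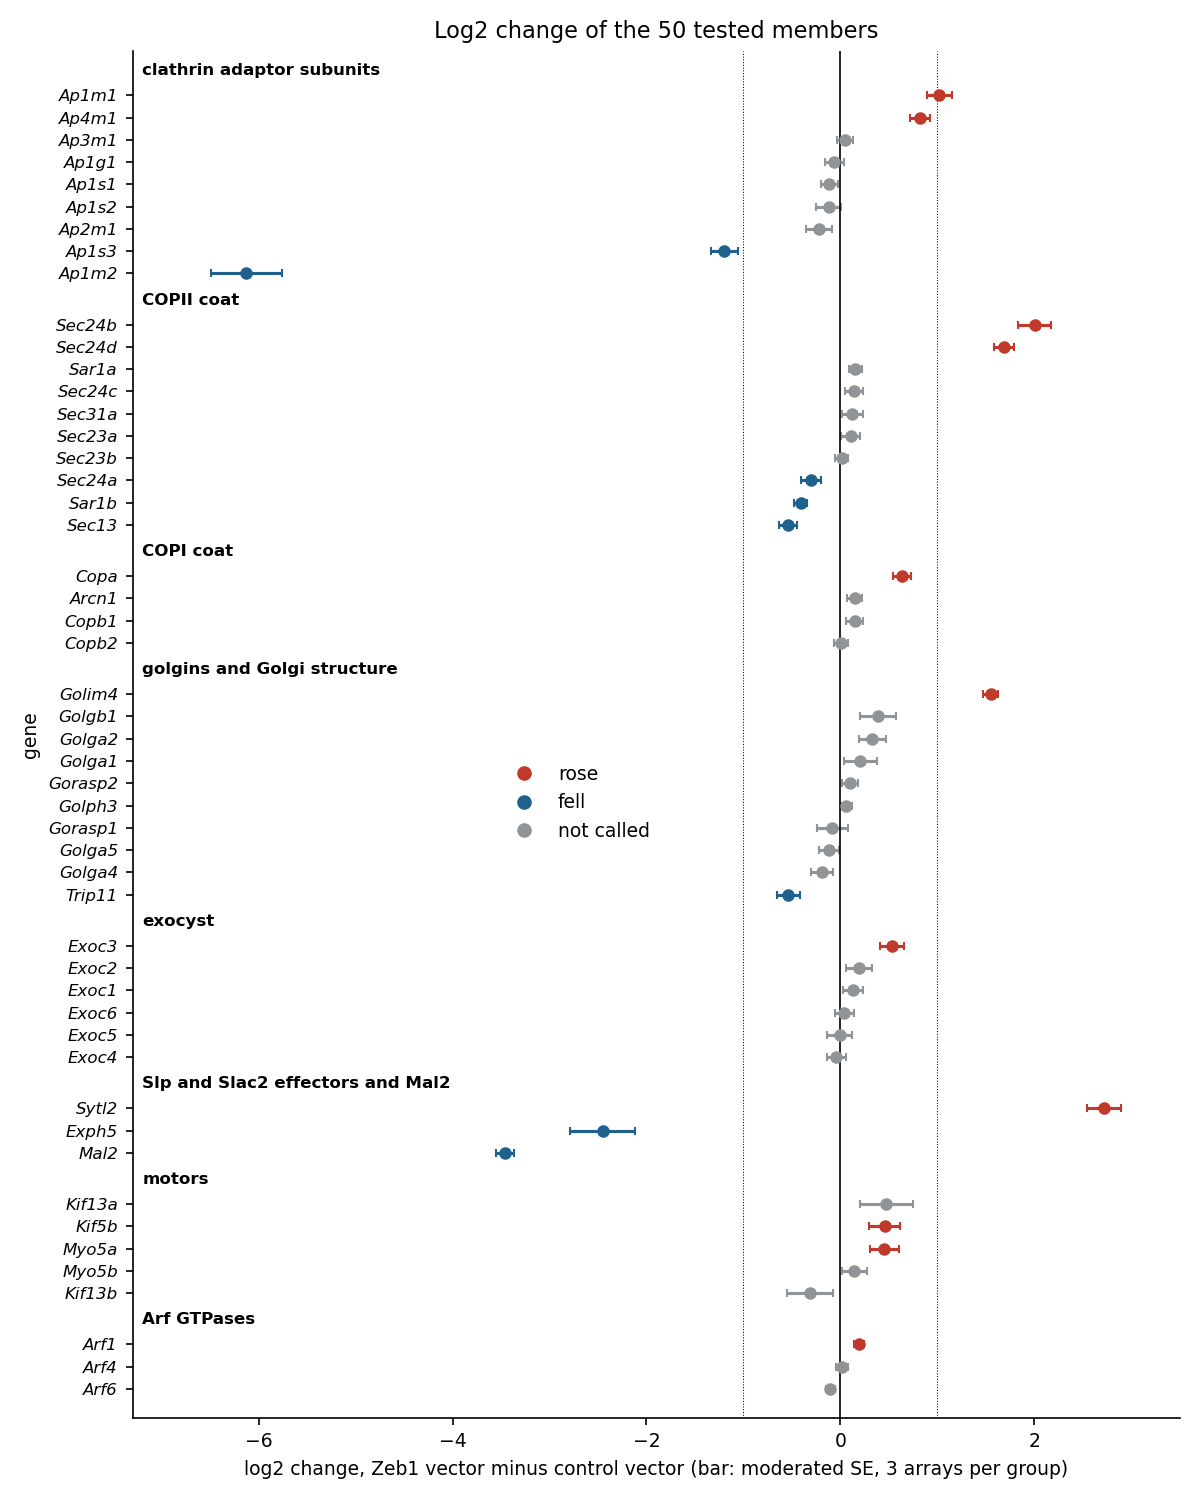
Log2 change (Zeb1 vector minus control vector, x axis) of the brightest tested probe set of each of the 50 tested genes, grouped by role; points are estimates, bars are moderated SE with 3 arrays per group, colours give the call, and dotted lines mark a 2-fold change. Ap1m2, Mal2, Exph5 and Ap1s3 lie left of the lower dotted line and Sytl2, Sec24b, Sec24d, Golim4 and Ap1m1 right of the upper one, while most others lie close to 0.

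Ap1m2 had the largest change of any member, and its promoter is shown because it holds a cluster of the short sequence that Zeb1 is known to bind, the E-box CACCTG. On the opposite strand the same site reads CAGGTG, and both strands were searched. The windows below are the 250 bases before the RefSeq start site (GRCm38.p6), printed 5′ to 3′ on the gene's strand, with matches on either strand in capitals. Ap1m2 and Exph5 fell, Sec24d rose, and Kif13a rose on some of its probe sets.
Ap1m2, chr9:21312334-21312583, minus strand: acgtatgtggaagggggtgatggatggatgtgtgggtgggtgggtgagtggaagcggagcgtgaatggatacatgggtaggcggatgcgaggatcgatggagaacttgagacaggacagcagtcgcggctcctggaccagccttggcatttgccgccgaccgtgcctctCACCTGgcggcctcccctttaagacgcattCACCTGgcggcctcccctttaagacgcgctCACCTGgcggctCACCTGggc
Exph5, chr9:53301420-53301669, plus strand: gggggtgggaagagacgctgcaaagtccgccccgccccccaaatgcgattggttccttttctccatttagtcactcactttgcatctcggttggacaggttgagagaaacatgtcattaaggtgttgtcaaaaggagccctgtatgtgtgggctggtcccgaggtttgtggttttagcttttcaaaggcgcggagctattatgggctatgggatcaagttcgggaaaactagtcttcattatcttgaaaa
Sec24d, chr3:123267246-123267495, plus strand: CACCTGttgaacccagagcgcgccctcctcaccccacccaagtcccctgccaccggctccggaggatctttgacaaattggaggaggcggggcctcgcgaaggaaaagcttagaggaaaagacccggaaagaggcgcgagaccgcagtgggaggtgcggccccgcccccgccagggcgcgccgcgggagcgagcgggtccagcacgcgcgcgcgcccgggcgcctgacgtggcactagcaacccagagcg
Kif13a, chr13:46929719-46929968, minus strand: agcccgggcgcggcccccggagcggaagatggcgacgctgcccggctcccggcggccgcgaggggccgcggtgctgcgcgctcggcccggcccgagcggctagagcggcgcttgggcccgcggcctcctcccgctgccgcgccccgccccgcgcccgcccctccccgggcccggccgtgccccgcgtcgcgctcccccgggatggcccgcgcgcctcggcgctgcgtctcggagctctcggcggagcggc

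The Ap1m2 window held 4 matches, all as CACCTG on the strand shown, with first bases at -81, -51, -21 and -9 from the start site. The first 3 were 30 bases apart and lay in a tandem repeat, in which a stretch of 28 bases occurs 2 times. At least 1 match was found in 17.2% of the 32851 promoter windows in the RefSeq table, and 4 or more in 14 windows (0.0426%). Among the members 42 had a promoter in the table, with 50 windows in all, and 10 windows held a match. Beside Ap1m2 these belonged to Ap1g1, Copa, Exoc2, Exoc6, Gorasp1, Sar1b, Sec24d, Sec31a and Trip11. That set holds genes that rose (Copa and Sec24d), genes that fell (Sar1b and Trip11) and genes that were not called. Of the members called with at least a 2-fold change, Ap1m1, Mal2 and Sytl2 had no promoter in the table and were not searched. The windows of Ap1s3, Sec24b, Golim4 and Exph5 held no match. A match is a run of letters and does not show that the factor binds there.

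Of 9 adaptor subunits 2 rose, 2 fell and 5 were not called, so 44.4% were called, against 49.3% of all tested genes. The median log2 change was -0.11, and the largest changes were in AP-1. Its medium subunit exists in a ubiquitous form, encoded by Ap1m1, and an epithelial form, encoded by Ap1m2. Ap1m2 had log2 signals of 5.18, 4.45 and 6.30 on the Zeb1 vector arrays, against 11.45, 11.44 and 11.40 on the control vector arrays. All 3 Zeb1 arrays lay far below the controls, and 1 of them was at the floor. It fell at least 69.8-fold (log2 change -6.13, SE 0.37, adjusted p = 1.03e-06), and the log2 change was -5.11 with the floor at the pooled 50th percentile. In RNA from a whole culture, fewer cells with a transcript and less of it per cell cannot be told apart. Ap1m1 had 10.01, 10.27 and 10.39 on the Zeb1 vector arrays, against 9.03, 9.36 and 9.21 on the control vector arrays. It rose 2.03-fold (log2 change 1.02, SE 0.13, adjusted p = 0.000128), and on its second probe set it rose by 1.55 (adjusted p = 1.39e-05). The groups did not overlap for either gene. That was so for 22 of the 50 members and for 58.2% of all tested genes. The change of Ap1m2 minus that of Ap1m1 was -7.15 on the log2 scale (SE 0.51). Its two-sided exact permutation p was 0.1. That is the smallest value that 3 arrays against 3 allow, here and for every difference between paralogues below. Of the paralogue pairs compared, 12 had both genes tested and 8 of these reached that smallest p, so none could pass 0.05, before or after adjustment over the pairs.

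The small subunit of AP-1 is encoded by Ap1s1, Ap1s2 and Ap1s3. Ap1s3 had 8.56, 8.34 and 8.30 on the Zeb1 vector arrays, against 9.75, 9.70 and 9.33 on the control vector arrays, and fell 2.29-fold (log2 change -1.20, SE 0.14, adjusted p = 8.64e-05). Every Zeb1 array was below every control array. Ap1s1 had 11.38, 11.32 and 11.60 on the Zeb1 vector arrays and 11.64, 11.46 and 11.55 on the control vector arrays, so the groups overlapped (log2 change -0.11, SE 0.088, adjusted p = 0.334). The change of Ap1s3 minus that of Ap1s1 was -1.08 (SE 0.19, exact permutation p = 0.1).

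Ap1s2 gave probe sets that disagreed. The brightest had 9.36, 9.33 and 9.11 on the Zeb1 vector arrays and 9.27, 9.62 and 9.28 on the control vector arrays, with a log2 change of -0.12 (SE 0.13, adjusted p = 0.485). On the next the signals were 9.23, 9.09 and 9.18 on the Zeb1 vector arrays, against 7.92, 8.10 and 8.20 on the control vector arrays, a rise of 1.09 (adjusted p = 6.62e-05). On the dimmest Ap1s2 rose by 1.01 (adjusted p = 0.000862). When its tested probe sets were averaged, Ap1s2 rose by 0.66 (adjusted p = 0.000315). On the brightest probe sets the change of Ap1s3 minus that of Ap1s2 was -1.07 (SE 0.15, exact permutation p = 0.1), and that of Ap1s2 minus Ap1s1 was -0.01 (SE 0.23, exact permutation p = 1). The transcript region behind each probe set was not examined.

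Of the other adaptor subunits, Ap4m1, the medium subunit of AP-4, rose by 0.83 (SE 0.10, adjusted p = 0.000127). It had 9.56, 9.58 and 9.59 on the Zeb1 vector arrays, against 8.65, 8.75 and 8.86 on the control vector arrays. The large AP-1 subunit Ap1g1 was not called on its brightest probe set (log2 change -0.06, adjusted p = 0.658) and rose by 0.45 on another (adjusted p = 0.00238). Its remaining tested probe sets each had a log2 change of -0.10 and were not called (adjusted p = 0.51 and 0.792). Ap2m1, the medium subunit of the endocytic adaptor AP-2, and Ap3m1, that of AP-3, had log2 changes of -0.22 and 0.05 and were not called (adjusted p = 0.215 and 0.686).

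**Figure D2:**
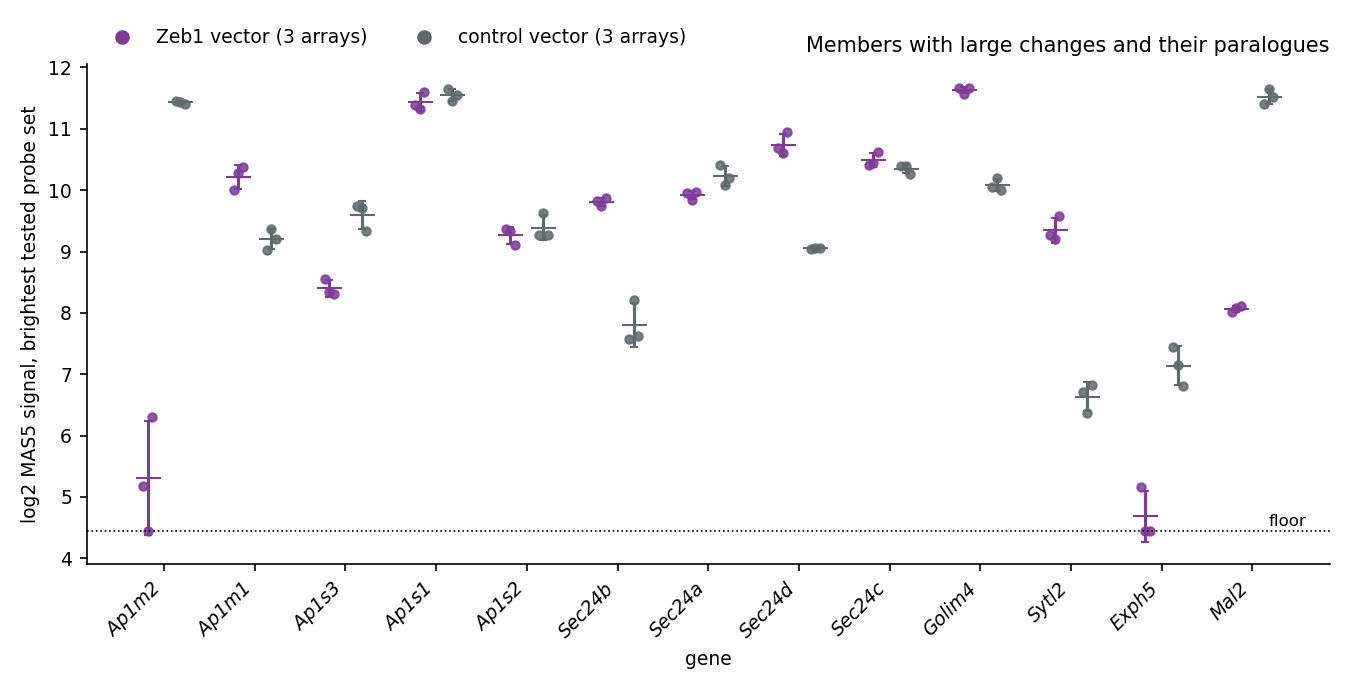
Log2 MAS5 signal (y axis) on every array for the members called with at least a 2-fold change and for the tested paralogues paired with them; purple points are the 3 Zeb1 vector arrays and grey points the 3 control vector arrays, with the mean and SD as bars and the floor as a dotted line. Ap1m2 and Exph5 reach the floor in Zeb1 vector cells, and the groups stand apart for Ap1m1, Ap1s3, Sec24b, Sec24d, Golim4, Sytl2 and Mal2.

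Of 10 COPII genes 2 rose, 3 fell and 5 were not called, with a median log2 change of 0.12. Thus 50% were called, against 49.3% of all tested genes. The largest changes were in the cargo-binding subunit Sec24, which exists in 4 forms that recognise partly different export signals. Sec24b had 9.83, 9.74 and 9.87 on the Zeb1 vector arrays, against 7.58, 8.22 and 7.63 on the control vector arrays. It rose 4.01-fold (log2 change 2.00, SE 0.17, adjusted p = 1.05e-05), and the groups were well apart. Its second probe set had a log2 change of 0.43 and was not called (adjusted p = 0.133), and the mean of both rose by 1.22. Sec24d had 10.68, 10.60 and 10.94 on the Zeb1 vector arrays, against 9.04, 9.06 and 9.06 on the control vector arrays, and rose 3.22-fold (log2 change 1.69, SE 0.10, adjusted p = 1.24e-06). Sec24a had 9.95, 9.85 and 9.98 on the Zeb1 vector arrays and 10.41, 10.08 and 10.20 on the control vector arrays. Its fall was small (log2 change -0.30, SE 0.10, adjusted p = 0.0347), and leaving out any of 4 arrays, Zeb1 vector replicates 1 and 2 and control vector replicates 1 and 3, ended the call (adjusted p = 0.0701, 0.116, 0.135 and 0.0684). Sec24c, the remaining form, had a log2 change of 0.14 and was not called (adjusted p = 0.229). The change of Sec24a minus that of Sec24b was -2.31 (SE 0.29), and that of Sec24d minus Sec24c was 1.55 (SE 0.066), with an exact permutation p of 0.1 for both.

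The rest of the COPII coat changed less than Sec24b and Sec24d. Sec13, an outer cage protein that is also part of the nuclear pore, had 10.91, 10.99 and 10.95 on the Zeb1 vector arrays, against 11.65, 11.52 and 11.30 on the control vector arrays, and fell by 0.54 (SE 0.093, adjusted p = 0.000939). Sar1b, a form of the GTPase that starts coat assembly, fell by 0.41 (SE 0.069, adjusted p = 0.000864), and its paralogue Sar1a had a log2 change of 0.16 and was not called (adjusted p = 0.0761). The difference between the changes of Sar1b and Sar1a was -0.57 (SE 0.064, exact permutation p = 0.1). Sec23a and Sec23b, inner-coat partners of Sec24, had log2 changes of 0.11 and 0.01, and the cage protein Sec31a of 0.12. None of these 3 was called (adjusted p = 0.414, 0.908 and 0.375). The change of Sec23a minus that of Sec23b was 0.09 (SE 0.11, exact permutation p = 0.6).

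Of the 4 COPI subunits 25% were called, against 49.3% of all tested genes, and the median log2 change was 0.15. Only Copa, the alpha subunit, was called on its brightest probe set. It had 12.75, 12.90 and 13.12 on the Zeb1 vector arrays, against 12.35, 12.28 and 12.22 on the control vector arrays, and rose 1.56-fold (log2 change 0.64, SE 0.091, adjusted p = 0.000304). The beta subunits Copb1 and Copb2 had log2 changes of 0.15 and 0.01 (adjusted p = 0.206 and 0.96). The change of Copb2 minus that of Copb1 was -0.14 (SE 0.027, exact permutation p = 0.1). Arcn1, the delta subunit, had a log2 change of 0.15 on its brightest probe set (adjusted p = 0.159), and its other probe sets were called in opposite directions, -0.30 and 0.29 (adjusted p = 0.0471 and 0.0442).

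Among the golgins and other Golgi proteins, Golim4 rose, Trip11 fell and 8 of 10 genes were not called, with a median log2 change of 0.08. Thus 20% were called, against 49.3% of all tested genes. Golim4 encodes a membrane protein that cycles between the Golgi and endosomes. Its signals were 11.66, 11.57 and 11.67 on the Zeb1 vector arrays, against 10.06, 10.20 and 10.00 on the control vector arrays. It rose 2.92-fold (log2 change 1.55, SE 0.079, adjusted p = 3.09e-07), and the groups were far apart relative to their spread. Trip11, the golgin GMAP-210, had 9.02 ± 0.059 in Zeb1 vector cells and 9.55 ± 0.18 in control vector cells (SD, n = 3 each) and fell by 0.54 (SE 0.12, adjusted p = 0.00403). Golgb1 (giantin) and Golga2 (GM130), tethers of Golgi membranes, had log2 changes of 0.38 and 0.33 and were not called (adjusted p = 0.119 and 0.08). Golph3, a lipid-binding protein that links the Golgi to actin, had changes between -0.07 and 0.09 on its 4 tested probe sets, none of them called. The stacking proteins Gorasp1 and Gorasp2 had log2 changes of -0.08 and 0.10 (adjusted p = 0.706 and 0.363), with a difference, Gorasp2 minus Gorasp1, of 0.18 (SE 0.23, exact permutation p = 0.5). For the golgins Golga1, Golga4 and Golga5 the log2 changes were 0.21, -0.19 and -0.12 (adjusted p = 0.357, 0.194 and 0.404).

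Of 6 exocyst subunits 1 was called (16.7%, against 49.3% of all tested genes), and the median log2 change was 0.09. Exoc3, the Sec6 subunit, had 10.50, 10.61 and 10.50 on the Zeb1 vector arrays, against 9.97, 10.27 and 9.77 on the control vector arrays, and rose by 0.54 (SE 0.12, adjusted p = 0.00533), with a rise of 0.62 on its second probe set (adjusted p = 0.00654). Its call was lost with no filter on low signals (adjusted p = 0.0528). The other 5 subunits were not called, with log2 changes from -0.04 (Exoc4) to 0.19 (Exoc2) and adjusted p from 0.295 (Exoc2) to 0.968 (Exoc5). On a lower probe set of Exoc6 there was a rise of 0.32 (adjusted p = 0.0203). Its lowest tested probe set had a log2 change of 0.13 and was not called (adjusted p = 0.505).

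Of the 5 effectors that act late in the route to the cell surface 3 were tested, of which 1 rose and 2 fell, and 49.3% of all tested genes were called. Sytl2, a synaptotagmin-like effector that links Rab27 vesicles to the plasma membrane, had 9.27, 9.20 and 9.58 on the Zeb1 vector arrays, against 6.71, 6.37 and 6.82 on the control vector arrays. It rose 6.57-fold (log2 change 2.72, SE 0.17, adjusted p = 1.5e-06). Exph5, another Rab27 effector, also called Slac2-b, had 5.16, 4.45 and 4.45 on the Zeb1 vector arrays, with 2 arrays at the floor, against 7.45, 7.15 and 6.81 on the control vector arrays. It was at least 5.47-fold lower (log2 change -2.45, SE 0.34, adjusted p = 0.000242), and its log2 change was -0.81 with the floor at the pooled 50th percentile. Exph5 passed the filter through its control vector arrays alone. Mal2, a membrane protein of transcytosis to the apical surface of epithelial cells, had 8.02, 8.07 and 8.10 on the Zeb1 vector arrays, against 11.41, 11.64 and 11.52 on the control vector arrays. It fell 11.0-fold (log2 change -3.46, SE 0.094, adjusted p = 6.5e-09), and its signal in Zeb1 vector cells stayed well above the floor. Ap1m2 and Mal2 thus fell alongside the epithelial markers Cdh1, Epcam and Krt7, but Krt8 fell by only 0.16 and Krt18 and Krt19 were not called. The part of that marker shift in the falls of Ap1m2 and Mal2 was not tested. The other Slp genes were not tested. Sytl1 lay at the floor on all 6 arrays, and the brighter probe set of Sytl4 had 4.93, 6.10 and 5.02 on the Zeb1 vector arrays and 4.45, 4.45 and 4.78 on the control vector arrays, all under the pooled median.

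Of the 5 motors 2 rose and 3 were not called on their brightest probe sets. Thus 40% were called, against 49.3% of all tested genes. Kif13a, a kinesin that binds AP-1 and carries its cargo, showed the widest disagreement between probe sets, and its lower probe sets are described after their values were seen. The probe set with the highest mean signal had 7.76, 7.44 and 7.30 on the Zeb1 vector arrays and 6.52, 6.99 and 7.57 on the control vector arrays, with a log2 change of 0.47 that was not called (SE 0.27, adjusted p = 0.188). On the next the signals were 9.12, 9.09 and 9.38 on the Zeb1 vector arrays, against 4.45, 4.45 and 5.15 on the control vector arrays. That is at least 22.9-fold higher (log2 change 4.51, SE 0.25, adjusted p = 5.13e-07), with 2 control arrays at the floor. On the dimmest Kif13a had 7.32, 7.34 and 7.60 on the Zeb1 vector arrays, against 4.48, 5.04 and 4.54 on the control vector arrays, at least 6.65-fold higher (adjusted p = 4.31e-05). Of the remaining 2, 1 rose by 1.05, a lower bound (adjusted p = 0.0141), and the other had a log2 change of 0.46 and was not called (adjusted p = 0.244). Every Kif13a probe set that rose had passed the filter through the Zeb1 vector arrays alone. Averaged over its tested probe sets Kif13a rose by 1.85 (adjusted p = 0.000133). With the floor at the pooled 50th percentile another probe set stood for the gene, and it rose by 2.87 (adjusted p = 3.95e-07). Without control vector replicate 3 the brightest probe set was called as well (log2 change 0.75, adjusted p = 0.0363). Its paralogue Kif13b had a log2 change of -0.32 and was not called (adjusted p = 0.313). The change of Kif13a minus that of Kif13b was 0.79 (SE 0.30, exact permutation p = 0.1), or 3.19 with the floor at the pooled 50th percentile.

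The other motors changed less. Kif5b, a conventional kinesin heavy chain, rose on 4 of its 5 tested probe sets, by 0.46 to 0.60, and the other had a log2 change of 0.45 (adjusted p = 0.0656). On its brightest probe set the signals were 10.66, 10.59 and 10.82 on the Zeb1 vector arrays, against 10.27, 9.86 and 10.57 on the control vector arrays (SE 0.16, adjusted p = 0.0386), and the groups came close to each other. That call ended when any Zeb1 vector array was left out (adjusted p = 0.0811, 0.0623 and 0.123), and when control vector replicate 1 or 2 was (adjusted p = 0.0808 and 0.089). The log2 change was 0.27 without control vector replicate 2. Myo5a, an actin-based vesicle motor, had 10.40, 9.84 and 10.25 on the Zeb1 vector arrays and 9.74, 9.88 and 9.50 on the control vector arrays, so the groups overlapped although it was called (log2 change 0.45, SE 0.15, adjusted p = 0.0343). Leaving out any of 4 arrays, Zeb1 vector replicates 1 and 3 and control vector replicates 1 and 3, ended the call (adjusted p = 0.132, 0.101, 0.0754 and 0.118). On its next probe set Myo5a had a log2 change of 0.18 and was not called (adjusted p = 0.195). Its lowest probe set rose by 0.60 (adjusted p = 0.00499). Myo5b, the form known for apical recycling in epithelial cells, had a log2 change of 0.14 and was not called (adjusted p = 0.395), and the change of Myo5b minus that of Myo5a was -0.31 (SE 0.24, exact permutation p = 0.4).

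**Figure D3:**
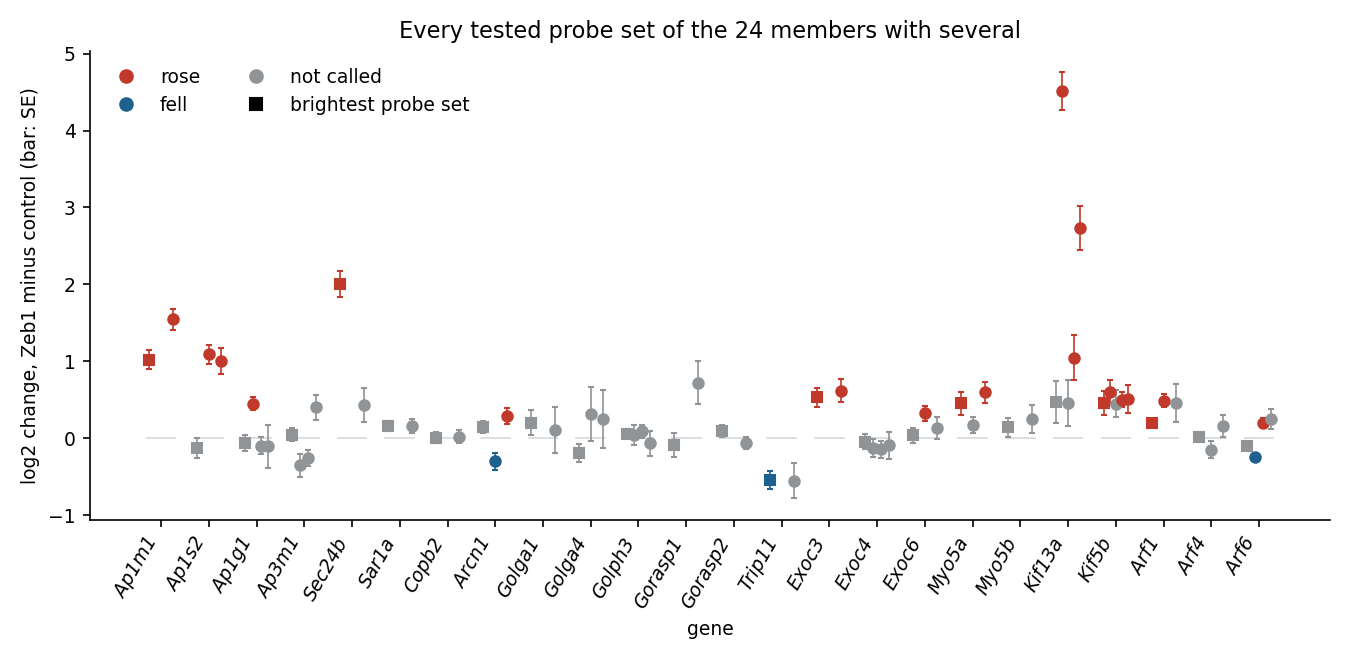
Log2 change (Zeb1 vector minus control vector, y axis, bars are moderated SE) of every tested probe set of the 24 genes read by several; squares mark the brightest probe set and colours give the call. Kif13a spreads from 0.46 to 4.51 and Ap1s2 from -0.12 to 1.09, while the 4 probe sets of Golph3 and the 5 of Kif5b lie close together.

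Arf1, the GTPase that recruits COPI and AP-1 to Golgi membranes, had 14.21, 14.19 and 14.31 on the Zeb1 vector arrays, against 14.10, 13.99 and 14.04 on the control vector arrays, and rose by 0.20 (SE 0.052, adjusted p = 0.0114). It rose by 0.49 on its second probe set (adjusted p = 0.000902). Arf4, a related Golgi GTPase, had a log2 change of 0.01 and was not called (adjusted p = 0.888). Arf6, which acts at the plasma membrane, was not called on its brightest probe set (log2 change -0.10, adjusted p = 0.0928), and its next ones went opposite ways, with a fall of 0.24 (adjusted p = 0.00361) and a rise of 0.20 (adjusted p = 0.0317). Arcn1 and Arf6 were the only 2 members with probe sets called in both directions.

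Changes differed between chromosomes. Over all tested genes the log2 change had a median of 0.01, and by chromosome it ranged from -0.32 on chromosome 17 to 0.68 on chromosome 18, where 70.6% of 299 tested genes rose. For each member the median change of the tested genes nearest to it, 10 on each side where the chromosome allowed, was therefore set beside its own. Zeb1 itself lies on chromosome 18 and rose by at least 5.23, but it was expressed from the transfected vector. Signal from the vector and from its own locus was not told apart. Kif5b, also on chromosome 18, rose by 0.46, and its 19 neighbours had a median of 0.94, with 17 of them called as rises. Myo5b, on the same chromosome, had 0.14 against 0.71 for its neighbours. Sec13, on chromosome 6, had -0.54 against -0.38, Trip11, on chromosome 12, had -0.54 against -0.29, and Exoc3, on chromosome 13, had 0.54 against 0.32. Sec24a and Sar1b, which lie near each other on chromosome 11, had -0.30 and -0.41 against 0.22 for each one's neighbours. The largest changes were far from those of nearby genes. The neighbours' median was -0.02 for Ap1m2, 0.29 for Mal2, -0.13 for Exph5, -0.02 for Sytl2 and -0.07 for Ap1m1. Sec24b, Sec24d and Golim4 all lie on chromosome 3, with neighbour medians of 0.34, 0.26 and 0.18, against their own changes of 2.00, 1.69 and 1.55. The part of the chromosome-wide shifts in the members' changes, large or small, was not tested.

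**Figure D4:**
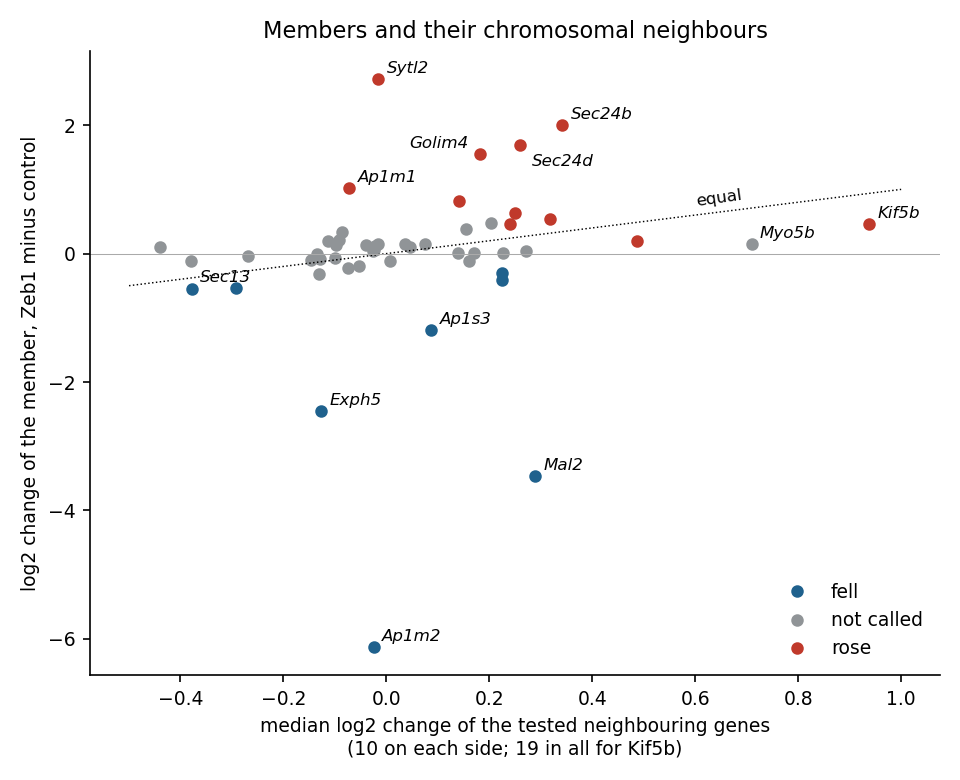
Log2 change of each of the 50 tested members (y axis) against the median log2 change of the tested genes on either side of it (x axis, 20 genes, or 19 for Kif5b); colours give the call and the dotted line marks equal values. The members with changes of at least 2-fold lie far above or below the line, and Kif5b and Myo5b lie at the right, below it.

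A wider list of trafficking genes, none of them members, also changed in both directions. Of 140 tested genes 43 rose and 35 fell, so 55.7% were called, against 49.3% of all tested genes. By direction 30.7% rose and 25% fell, against 25.8% and 23.5% of all tested genes. The lists below hold 7 to 24 tested genes each, and their shares are to be read against those of all genes.

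In the group with the remaining exocyst subunits, Slp and Slac2 proteins and the Mal family, 4 of 7 genes (57.1%) rose and 2 (28.6%) fell. Mal, a raft protein of apical transport related to Mal2, was at least 70.1-fold lower (6.23 ± 1.27 in Zeb1 vector cells and 12.36 ± 0.47 in control vector cells, SD, n = 3 each, adjusted p = 9.96e-06), and on its other probe set, with 2 Zeb1 vector arrays at the floor, it was at least 297-fold lower. Unc13d, a Rab27 effector of granule release, fell by 2.41 (adjusted p = 4.49e-07). Mlph, melanophilin, a Rab27 effector that binds myosin 5a, was at least 10.4-fold higher (8.92 ± 0.077 in Zeb1 vector cells and 5.55 ± 0.16 in control vector cells, SD, n = 3 each, adjusted p = 3.89e-07). Mall, a further Mal relative, was at least 3.76-fold higher (adjusted p = 4.04e-05). Mal2 and Mal thus fell, and Mall rose. The neighbours of Mal, Unc13d, Mlph and Mall had medians of 0.05, 0.18, 0.17 and -0.04.

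Among other coat proteins, cargo receptors and proteins of endoplasmic reticulum exit sites 11 of 22 (50%) rose and 2 (9.09%) fell, against 25.8% and 23.5% of all tested genes. Sec16b, a scaffold of exit sites, was at least 8.39-fold higher (8.16 ± 0.12 in Zeb1 vector cells and 5.10 ± 0.30 in control vector cells, SD, n = 3 each, adjusted p = 5.43e-06). Copz2, a form of the COPI zeta subunit, had 6.99 ± 0.38 in Zeb1 vector cells while all 3 control arrays were at the floor, at least 5.83-fold higher (adjusted p = 0.000161). The neighbours of Sec16b had a median of 0.60 and those of Copz2 of 0.48. The falls were small, 0.27 for the paralogue Copz1 and 0.22 for the cargo receptor Tmed9. Neither was called on its other tested probe set (log2 changes of -0.42 and -0.27, adjusted p = 0.387 and 0.0538). The neighbours of Copz1 and Tmed9 had medians of -0.21 and 0.21. In the list of other Golgi proteins 7 of 17 (41.2%) rose and 2 (11.8%) fell. Mmd, also called PAQR11, a Golgi membrane protein, rose 6.98-fold (13.89 ± 0.040 in Zeb1 vector cells and 11.08 ± 0.13 in control vector cells, SD, n = 3 each, adjusted p = 4.81e-09), and on its other probe sets it rose by 1.67 and 2.67, with a neighbour median of 0.31. Acbd3, a Golgi scaffold, rose by 1.15 (adjusted p = 0.000237). On its other probe sets the log2 change was 0.13 to 0.48, with 1 of 3 called, and its neighbours had a median of 0.44, with 15 of 20 called as rises. The golgin Gcc1 fell by 1.07 (adjusted p = 0.000186), and Tgoln1, a trans-Golgi membrane protein, by 0.46 (adjusted p = 0.00172), a fall its 3 other probe sets did not show as calls. The neighbours of Gcc1 and Tgoln1 had medians of -0.22 and -0.12.

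Of the other adaptor subunits, clathrins and Gga proteins 3 of 21 (14.3%) rose and 6 (28.6%) fell. Gga2, a monomeric adaptor of the trans-Golgi network, rose by 1.59 (adjusted p = 2.17e-06), and its paralogue Gga1 fell by 1.05 (adjusted p = 0.00126). The neighbours of Gga2 and Gga1 had medians of 0.03 and -0.10. Ap3s1, the small subunit of AP-3, rose by 1.34 (adjusted p = 2.8e-07). It lies on chromosome 18, and its neighbours had a median of 0.72. Ap4s1, the small subunit of AP-4, fell by 0.97 (adjusted p = 8.94e-05), and its 20 neighbours on chromosome 12 had a median of -0.50, with 12 of them called as falls. The list of SNARE genes, the membrane fusion proteins, also held the syntaxin partners Stxbp2 and Stxbp3, which are not SNAREs. In this list 5 of 24 (20.8%) rose and 7 (29.2%) fell, with Stxbp2 and Stxbp3 among the falls. Stx3, the apical syntaxin of epithelial cells, fell by 2.92 (8.81 ± 0.11 in Zeb1 vector cells and 11.73 ± 0.14 in control vector cells, SD, n = 3 each, adjusted p = 2.37e-08), and its 3 other probe sets had log2 changes from -3.15 to -2.54, of which the 2 smaller are lower bounds in size. Stxbp2, a partner of apical syntaxins, fell by 1.86 (adjusted p = 8.66e-07). Stx2 rose by 1.05 and Vamp7, a vesicle SNARE, by 0.97 (adjusted p = 0.000254 and 0.0041). The neighbours of Stx3, Stxbp2, Stx2 and Vamp7 had medians of 0.27, -0.18, -0.002 and -0.07.

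For the multisubunit tethers COG and TRAPP 4 of 20 (20%) rose and 7 (35%) fell, with log2 changes of -0.98 and -0.96 for Cog5 and Trappc5 and of 0.70 and 0.63 for Trappc8 and Trappc2. Cog5 lay under the pooled median in Zeb1 vector cells, and its neighbours on chromosome 12 had a median of -0.43, with 13 of 20 called as falls. The neighbours of Trappc5 and Trappc2 had medians of -0.14 and 0.20. Trappc8 lies on chromosome 18, where its neighbours had a median of 0.45. Among other motor genes 5 of 12 (41.7%) rose and 2 (16.7%) fell. Klc3, a kinesin light chain, was at least 17.0-fold lower (adjusted p = 6.37e-08), and the neuronal kinesin heavy chain Kif5c, a relative of Kif5b, rose by 1.07 (adjusted p = 7.87e-05). Myo5c, a myosin 5 of exocrine tissue, rose by 0.77 and Klc1 fell by 0.38 (adjusted p = 0.0479 for Klc1). On its other tested probe sets Klc1 had log2 changes of -0.08, not called, and -0.59, a fall (adjusted p = 0.671 and 0.0369). The neighbours of Klc3 had a median of -0.57, those of Myo5c of 0.34 and those of Kif5c of -0.03. Those of Klc1, on chromosome 12, had a median of -0.51, with 11 of 20 called as falls. Of the other Arf family genes and their regulators 4 of 17 (23.5%) rose and 7 (41.2%) fell, none by as much as 2-fold. Arfgap3 and Iqsec1 rose by 0.76 and 0.50, and Cyth3 and Arfgef1, exchange factors for Arf GTPases, fell by 0.68 and 0.62. On its other tested probe set Cyth3 had a log2 change of -0.24 and was not called (adjusted p = 0.369). The neighbours of Arfgap3 and Iqsec1 went the other way, with medians of -0.31 and -0.37. Those of Cyth3 and Arfgef1 had medians of 0.04 and 0.14. The part of the chromosome-wide shifts in these changes was not tested.

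**Figure D5:**
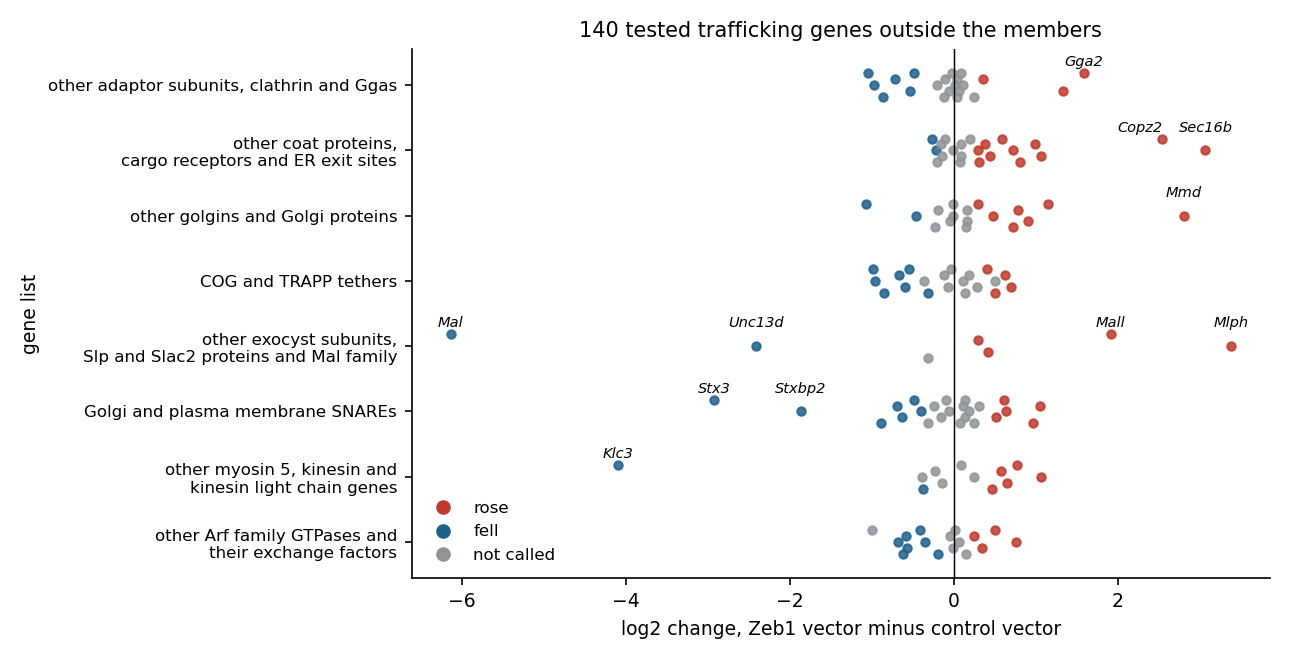
Log2 change (x axis, Zeb1 vector minus control vector) of the 140 tested trafficking genes that are not members, 1 point per gene by list, with colours for the call; genes with a log2 change of 1.5 or more in either direction are named. Mal, Klc3, Stx3, Unc13d and Stxbp2 lie at the left, and Mlph, Sec16b, Mmd, Copz2, Mall and Gga2 at the right.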

How the data were processed

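RNA from 6 cultures of 393P cells was measured on Affymetrix arrays. Per the submitters' processing notes the authors summarised probe sets with MAS5, and the deposited values are on a log2 scale. No version, and no step between arrays, is given in the sources used here. Taken out of log2, the 2% trimmed mean signal was 500 on each array. The 2 missing values, both on control vector replicate 2, were set to the floor. Probe sets were named from the platform annotation (34945 with 1 symbol, 932 with several, 9160 with none, 64 control probe sets). Their names were checked through RefSeq's table of GRCm38.p6, which held 34741 and changed 0.

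Values were floored and filtered as described above, and the groups compared with limma 3.58.1 in R 4.3.3 (lmFit and eBayes with an intensity trend). P-values were adjusted by Benjamini-Hochberg over the 20594 tested probe sets. The fit was also run on simulated arrays in which few probe sets, all bright, were changed. Changes to or from the floor, and as many changes as were called here, were not simulated. The number of arrays, 3 per group, limits the precision, and the median SE of a member's log2 change was 0.10. Paralogue differences were tested per array by exact permutation. The rule named members called with at least a 2-fold change and their paralogues with values per array, and the 2 largest called rises and falls of each wider list; values per array of other called members, and of lower probe sets of Kif13a and Ap1s2, were added after seeing them. The members, lists and pairs were chosen with earlier results of these data known. Neighbouring genes were compared after the values were seen. Alternatives changed the floor, filter, normalization, trend, replicate block, probe set summary and arrays.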

Additional observations from a re-analysis of the deposited data

How the results depend on the processing

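Over all alternatives tried, the members that rose numbered 8 to 13 (11 as reported) and those that fell 6 to 10 (8 as reported), and the counts of probe sets and of other trafficking genes also stayed within 1.5 times those reported. The largest changes (Ap1m1, Ap1m2, Ap1s3, Sec24b, Sec24d, Golim4, Sytl2, Exph5 and Mal2) kept their direction and their call under every alternative that gave a value; Ap1m2 and Exph5 gave none where signal was required on all 6 arrays. The change of Ap1m2 minus Ap1m1 was -6.13 with the floor at the pooled 50th percentile. Ap1s2 turned to a rise of 0.66 with the mean of its probe sets. Arf1 lost its call with no filter (adjusted p = 0.0634) and with no trend (adjusted p = 0.11); with no filter and with no trend Sec24a, Myo5a and Kif5b lost theirs too. With no filter 27.9% of all genes were called and 8 members rose. The replicate numbers did not pair the arrays: deviations of same-numbered arrays correlated at 0.017, 0.014 and -0.039. With the number as a block 12 members rose and 8 fell, and it took away no call of a named member. The fit on 1 probe set per gene, added after seeing the data, gave 11 and 8.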
